A study of Mus musculus with 12 samples.

Results

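The miR-99/100 and miR-125 families are 2 groups of microRNAs (miRNAs) that share their gene clusters. The members were chosen by name, as miR-99a, miR-99b, miR-100, miR-125a and miR-125b, which are 5 of the 705 miRNA names with at least 1 exactly matching count in these libraries. They held 464728 of 30022027 miRNA counts (1.55%), between 0.532% in the library 6h-2 and 2.93% in 1h-1. The libraries were made from small RNA of the hippocampus of individual male C57BL/6NCrl mice, 6 to 8 weeks old by the methods of the study. Electroconvulsive shock (ECS) discharges neurons of the whole brain at once. Untreated mice (NT) gave 2 libraries, and so did each time after ECS, which was 0.5 h, 1 h, 3 h, 6 h or 24 h. The suffix 1 or 2 marks the first or the second time course, so each time course holds 6 libraries and 1 untreated mouse. The deposited labels were followed for NT-1 and NT-2, although one listing in the study gives these 2 libraries in the opposite order of size, so each value that sets an untreated library against its own time course, or pairs the untreated libraries, rests on the labels. The tissue is the whole hippocampus, so fewer cells of a type and less RNA per cell cannot be told apart.

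A miRNA is cut from a hairpin precursor, and the 5′ or the 3′ arm of the hairpin is loaded into an Argonaute protein. The seed, bases 2 to 8 of the mature miRNA, pairs with target mRNAs, so miRNAs with a common seed are grouped as a family. The miR-99/100 family is best known for repressing the kinase mTOR, a regulator of protein synthesis and growth, and its cousin miR-10 lies in the Hox gene clusters. The miR-125 family are the vertebrate relatives of lin-4, the first miRNA described in worms, and miR-125b is abundant in neurons, where it is known to act at synapses. In mammals both families share gene clusters with a let-7 gene.

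The mature 5′ arms were taken from RefSeq (GRCm38.p6), in which all 6 loci had a sequence, and are shown with the seed in capitals because the seed defines the families:
miR-99a-5p: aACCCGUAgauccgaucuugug
miR-99b-5p: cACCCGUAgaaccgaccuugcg
miR-100-5p: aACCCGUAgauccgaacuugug
miR-125a-5p: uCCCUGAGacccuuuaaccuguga
miR-125b-5p: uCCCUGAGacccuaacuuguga
The seed ACCCGUA is shared by the first 3 and CCCUGAG by the other 2. Among the RefSeq mature sequences, miR-351-5p, miR-6394 and miR-6367 also have CCCUGAG. They are not among the members chosen by name, and the sums of the miR-125 family leave them out. The mature forms of miR-125a and miR-125b have their first 13 bases in common.

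Only 1 base separates miR-99a from miR-100, shown in capitals:
miR-99a-5p: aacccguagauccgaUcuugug
miR-100-5p: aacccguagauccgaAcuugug
The difference is U16A, counted from the 5′ end of miR-99a. From miR-99a to miR-99b there are 4 differences, namely A1C, U11A, U16C and U21C, all outside the seed.

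The mature 5′ arm of miR-125b comes from 2 loci with the same sequence, and only the 3′ arms tell the loci apart. Capitals mark their 5 differing bases:
miR-125b-1-3p: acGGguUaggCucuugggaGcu
miR-125b-2-3p: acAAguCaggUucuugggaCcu
No tag (a distinct insert sequence) counted for a member matched another annotated miRNA, so none of their counts was shared.

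The 6 loci lie on the plus strand of 3 chromosomes of GRCm38. On chromosome 9, Mir100 (41531425 to 41531504), Mirlet7a-2 (41536716 to 41536811) and Mir125b-1 (41581926 to 41582002) span 50578 bases in introns of the non-coding transcript 3110039I08Rik. Mir125b-1 also overlaps an exon of the sense-intronic transcript Gm28119. On chromosome 16, Mir99a (77598936 to 77599000), Mirlet7c-1 (77599657 to 77599750) and Mir125b-2 (77646273 to 77646343) span 47408 bases in introns of the non-coding host Mir99ahg. On chromosome 17, Mir99b (17830188 to 17830257), Mirlet7e (17830352 to 17830444) and Mir125a (17830812 to 17830879) span 692 bases within the protein-coding gene Spaca6. Of the 3 transcripts of Spaca6 that span Mir125a, 1 has an exon that overlaps it and the other 2 have an intron there.

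Accepted reads ranged from 1897490 to 7657222 per library and exact miRNA counts from 439336 (6h-1) to 4282006 (NT-2). Values are counts of tags that match a hairpin exactly, given as a percent of the miRNA counts of the library unless stated otherwise. NT-1 stood apart, since tags of 18 or 19 nt made up 51.4% of its miRNA counts, against 4.54% to 16.9% in the other first time course libraries and 0.910% to 3.78% in the second. The marker sets, all with every marker detected, were summed in each library, and several differed between the time courses. The brain miRNAs miR-124, miR-9, miR-128 and miR-138 summed to between 14.3% and 31.2% of the counts in the first and between 6.06% and 16.6% in the second time course. The vessel markers miR-126, miR-143 and miR-145 summed to between 6.30% and 14.5% in the first and between 0.565% and 1.65% in the second, with no overlap. The blood markers miR-451, miR-144 and miR-486 did not overlap either, with 0.0332% to 0.199% and 0.0168% to 0.0259%. For microglia and immune cells (miR-223, miR-142, miR-155) the ranges were 0.0994% to 0.979% and 0.0158% to 0.232%, and for oligodendrocytes (miR-219, miR-338) 0.273% to 1.40% and 0.392% to 1.82%. The muscle markers miR-1, miR-133a and miR-206 gave 0.258% to 1.10% and 0.771% to 1.69%, and the liver marker miR-122 0.000910% to 0.0247% and 0.00651% to 0.0321%. NT-1 was the highest library of the first time course for brain and blood markers and the lowest for vessel, oligodendrocyte and muscle markers. Their part in the results below was not tested.

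The most abundant member was miR-125b, whose 5′ arm held 1.00% ± 0.343 (SD, n = 2) of the miRNA counts in untreated hippocampus. It was followed by miR-99a at 0.252% ± 0.0434 (SD, n = 2) and miR-99b at 0.235% ± 0.143 (SD, n = 2), which did not differ beyond their spread. Far below these came miR-125a, at 0.0534% ± 0.0296 (SD, n = 2), and miR-100, at 0.0457% ± 0.00337 (SD, n = 2), again within the spread of each other. The upper 3 members were each above the lower 2 in both untreated libraries. These levels are counts of cloned sequences and were not calibrated to molecules. In the libraries themselves, the share of miR-125b was 1.24% in NT-1 (Wilson 95% interval 1.22% to 1.26%) and 0.758% in NT-2 (0.750% to 0.766%), so the libraries differed by far more than counting error.

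In the first time course, miR-99a made up 0.282% of the counts in NT-1, 0.839% in 0.5h-1, 0.658% in 1h-1, 0.852% in 3h-1, 0.690% in 6h-1 and 0.730% in 24h-1. In the second it made up 0.221% in NT-2, 0.119% in 0.5h-2, 0.349% in 1h-2, 0.215% in 3h-2, 0.0732% in 6h-2 and 0.123% in 24h-2. All 6 libraries of the second time course were below the 5 ECS libraries of the first, and NT-1 was the lowest of the first.

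For miR-99b the first time course gave 0.134% in NT-1, 0.756% in 0.5h-1, 0.925% in 1h-1, 0.723% in 3h-1, 0.352% in 6h-1 and 0.710% in 24h-1. The second gave 0.337% in NT-2, 0.102% in 0.5h-2, 0.450% in 1h-2, 0.390% in 3h-2, 0.0866% in 6h-2 and 0.153% in 24h-2. The groups overlapped, with 2 libraries of the second below every library of the first.

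The shares of miR-100 were 0.0433% in NT-1, 0.117% in 0.5h-1, 0.111% in 1h-1, 0.0930% in 3h-1, 0.0551% in 6h-1 and 0.102% in 24h-1. In the second they were 0.0480% in NT-2, 0.0299% in 0.5h-2, 0.0844% in 1h-2, 0.0720% in 3h-2, 0.0182% in 6h-2 and 0.0287% in 24h-2. As for its near-twin miR-99a, the lowest library was NT-1 in the first and 6h-2 in the second.

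The rarer miR-125 member, miR-125a, held 0.0325% in NT-1, 0.0291% in 0.5h-1, 0.0181% in 1h-1, 0.00853% in 3h-1, 0.00933% in 6h-1 and 0.0263% in 24h-1. It held 0.0744% in NT-2, 0.0481% in 0.5h-2, 0.179% in 1h-2, 0.105% in 3h-2, 0.00893% in 6h-2 and 0.0496% in 24h-2. Apart from 6h-2, the libraries of the second time course were above all of the first. The value of 6h-1 rests on 41 counts, with a Wilson 95% interval of 0.00688% to 0.0127%.

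For miR-125b the first time course gave 1.24% in NT-1, 0.661% in 0.5h-1, 1.15% in 1h-1, 1.03% in 3h-1, 0.659% in 6h-1 and 0.583% in 24h-1. The second gave 0.758% in NT-2, 0.404% in 0.5h-2, 0.927% in 1h-2, 0.525% in 3h-2, 0.334% in 6h-2 and 0.450% in 24h-2. The time courses overlapped, although the second was below the first at each of the 6 time points.

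**Figure D1:**
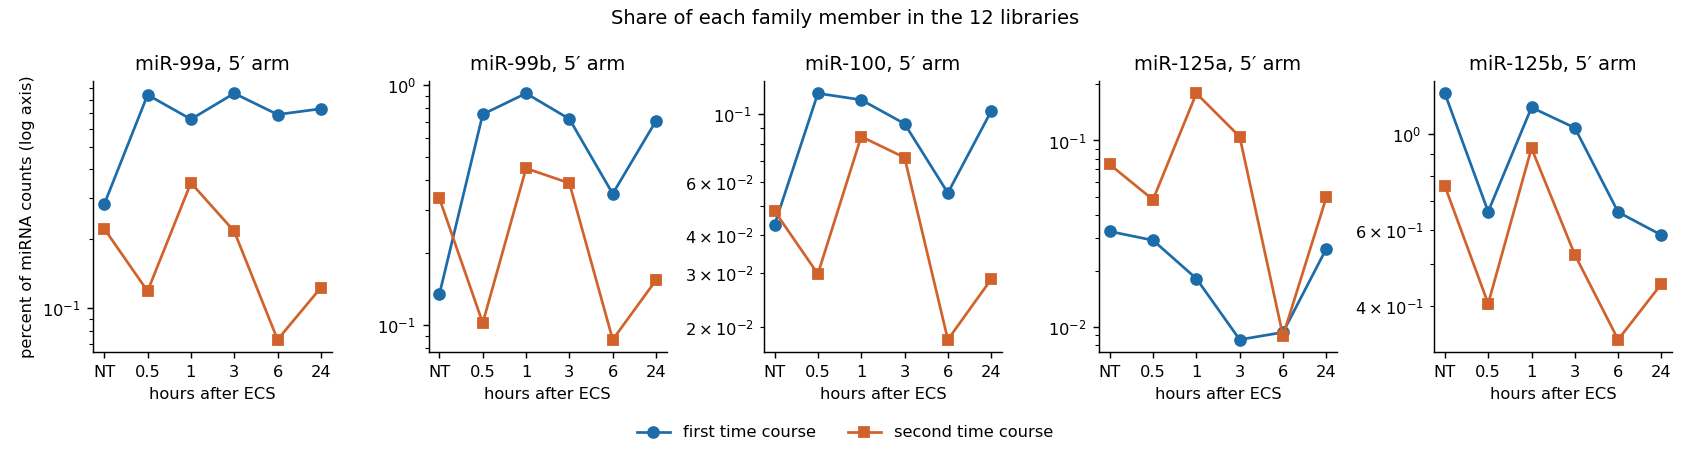
Share of the 5′ arm of each member in the miRNA counts (percent, log axis) against hours after ECS, with the untreated library (NT) at the left, for the first (circles) and the second (squares) time course. Each point is 1 library, and lines join the libraries of a time course; miR-99a lies between 0.658% and 0.852% in the ECS libraries of the first time course and between 0.0732% and 0.349% in the second, and miR-125a is the member that is mostly higher in the second.

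The change after ECS was asked of each member with edgeR's quasi-likelihood test on the counts of 469 arms, 2 libraries against 2 untreated libraries at each time. This fit held no term for the time course, although the numbers pair the libraries, so differences between the time courses add to its errors. At all 5 times no arm had an adjusted p under 0.05, 0 of the 10 member arms among them, beside 0% of all arms. At an unadjusted p under 0.05, 9 arms were found for 0.5 h, 2 for 1 h, 10 for 3 h, 9 for 6 h and 7 for 24 h, with no member among them. DESeq2 called 1 arm at 0.5 h and 2 at 3 h, none of them a member, and no arm at 1 h, 6 h or 24 h.

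The errors of the fitted changes were wide. At 3 h the log2 fold change over untreated was 1.62 (SE 1.19) for miR-99a, 1.65 (SE 1.14) for miR-99b and 1.41 (SE 1.01) for miR-100. For the same time the log2 fold change was 0.70 (SE 1.44) for miR-125a and 0.27 (SE 0.84) for miR-125b. The largest fitted decrease was that of miR-125a at 6 h, with a log2 fold change of -2.33 (SE 1.51), and its adjusted p was 0.994 (edgeR, Benjamini-Hochberg adjustment). The median log2 fold change of the 5 members' 5′ arms at 3 h was 1.41, against 0.15 over all 469 arms, and at 6 h it was -0.28 against 0.01. With the time course as a block, the log2 fold change of miR-125a at 6 h was -2.05 (SE 0.99, adjusted p = 0.656, edgeR).

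**Figure D2:**
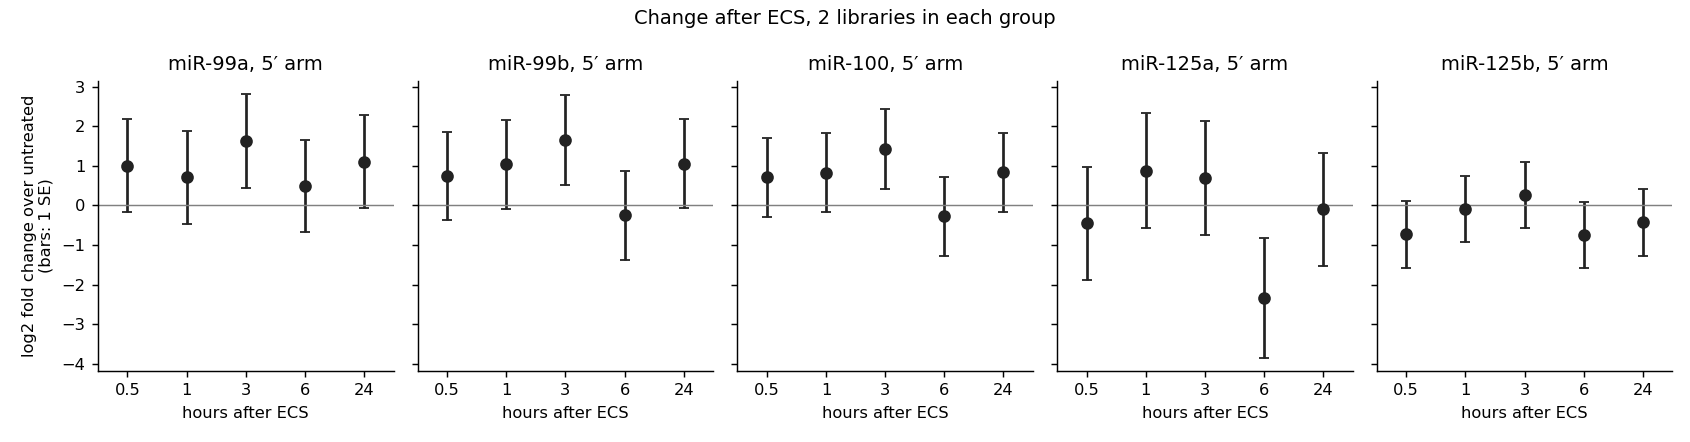
Fitted log2 fold change over untreated of the 5′ arm of each member at each time after ECS, with bars of 1 standard error (edgeR, 2 libraries in each group, no term for the time course). Most error bars cross 0, and the widest belong to miR-125a, which lies at -2.33 at 6 h.

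The 2 time courses did not show the same relation to their untreated library. In the first, all 5 ECS libraries were above NT-1 for miR-99a, miR-99b and miR-100. NT-1 was also at an end of that time course in its marker sums, with 31.2% for brain, 0.199% for blood, 6.30% for vessels, 0.273% for oligodendrocytes and 0.258% for muscle, and the part of these in the pattern was not tested. In the second, 1 of 5 was above NT-2 for miR-99a, 2 of 5 for miR-99b and 2 of 5 for miR-100. The members of the miR-125 family went the other way in the first time course, where 0 of 5 ECS libraries were above NT-1 for either. In the second, 2 of 5 were above NT-2 for miR-125a and 1 of 5 for miR-125b. Moving the untreated label among the 6 libraries of each time course (36 arrangements, exact permutation test, two-sided, smallest possible p = 0.0278) gave p = 0.528 for the share of miR-99a, 0.444 for miR-99b, 0.556 for miR-100, 0.417 for miR-125a and 0.139 for miR-125b. Of 31 measures tested this way none passed, the smallest adjusted p being 0.431. An adjusted p under 0.05 could be reached only if many measures lay at the smallest possible p together, so a change in 1 member alone could not pass.

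Between the time courses, an edgeR fit that took the time point into account called 151 of the 469 arms (32.2%), 93 higher (19.8%) and 58 lower (12.4%) in the second. Of the 10 member arms 3 were called, 2 higher and 1 lower, a share near that of all arms. The median log2 fold change of the 5 members' 5′ arms was -0.37, against 0.29 over all arms. The directions depend on the scaling, since with the total miRNA count in place of TMM the calls were 49 higher and 113 lower and the median over all arms moved from 0.29 to -0.30.

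The 5′ arm of miR-125a rose 2.19 on the log2 scale (SE 0.61, adjusted p = 0.0162, edgeR, Benjamini-Hochberg adjustment). In CPM (counts relative to the TMM effective library size) it averaged 168 ± 90.5 (SD, n = 6) over the first time course and 920 ± 643 (SD, n = 6) over the second, higher in 6 of 6 pairs. With the total miRNA count as scale it was 1.58 on the log2 scale with an adjusted p of 0.0519 (edgeR). Without 1h-1 the adjusted p was 0.0623 and without 1h-2 it was 0.0642.

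The 3′ arm of miR-125b, the passenger strand of the family's main member, fell by 1.48 on the log2 scale in the second time course (SE 0.44, adjusted p = 0.0222, edgeR, Benjamini-Hochberg adjustment). Its CPM were 390 ± 162 (SD, n = 6) and 132 ± 17.9 (SD, n = 6), lower in the second in 6 of 6 pairs. The call was lost by the first 18 nt of each tag (adjusted p = 0.0974), with no filter on low counts (0.0618), and without 1h-1 (0.0595), 24h-1 (0.0506), 0.5h-2 (0.0526) or 1h-2 (0.0563).

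The 3′ arm of miR-99a was also called, with a log2 fold change of 3.21 (SE 1.03, adjusted p = 0.0293, edgeR, Benjamini-Hochberg adjustment), but on few counts. It had 6 counts in NT-1, 1 in 0.5h-1, 1 in 3h-1 and 0 in the other 3 libraries of the first time course, where 0 allows up to 3 counts. In the second it had 8, 54, 14, 22, 3 and 12 counts in the order of the time points. With the total count as scale the call was lost (adjusted p = 0.0550). The adjusted p rose to 0.101 without 0.5h-2, and the call was lost in 9 of the 12 fits that left out 1 library.

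The 5′ arm of miR-99a did not pass, with a log2 fold change of -1.38 (SE 0.53, adjusted p = 0.0597, edgeR, Benjamini-Hochberg adjustment). It passed with the total count as scale (-1.998, adjusted p = 0.00655), with RLE factors (0.0374), in DESeq2 (0.00637), with tags that match 1 miRNA only (0.0200), by the first 18 nt (0.0362) and in edgeR with the time point left out of the fit (0.0222). It also passed in 4 of the 12 fits that left out 1 library, namely NT-1 (-1.75, adjusted p = 0.0229), NT-2, 1h-2 or 6h-2. The 3′ arm of miR-99b did not pass (-1.01, SE 0.59, adjusted p = 0.190, edgeR) but did with the total count as scale (-1.61, adjusted p = 0.0455). The log2 fold changes of the other 5′ arms were -0.72 (SE 0.60) for miR-99b, -0.37 (SE 0.51) for miR-100 and -0.05 (SE 0.39) for miR-125b. Each cluster also holds a let-7 gene, of a family that restrains growth and promotes differentiation. Of the mature 5′ arms of these let-7 names 2 of 3 were called, beside 32.2% of all arms, and the counts of let-7a and let-7c also hold those of loci outside the clusters (Mirlet7a-1 and Mirlet7c-2). The log2 fold change was 1.27 (SE 0.41) for let-7a, 1.70 (SE 0.42) for let-7c and -0.43 (SE 0.40) for let-7e, which was not called.

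**Figure D3:**
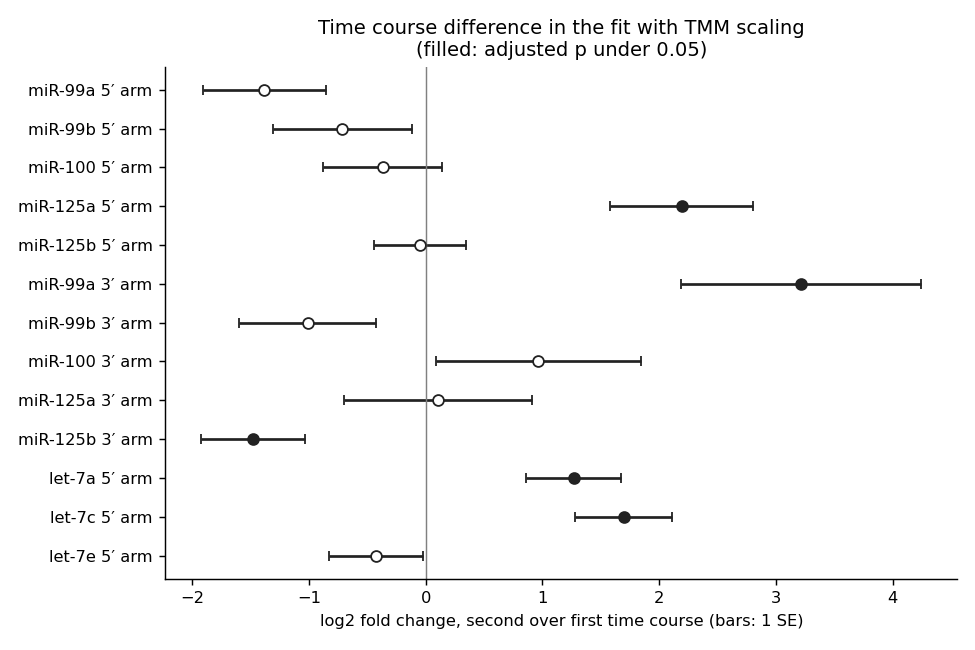
Log2 fold change of the second over the first time course for the 10 member arms and the 3 mature let-7 arms named for their clusters, with bars of 1 standard error (edgeR, TMM scaling, 12 libraries). Filled points have an adjusted p under 0.05; these are the miR-125a 5′ arm (2.19), the miR-99a 3′ arm (3.21), the miR-125b 3′ arm (-1.48), let-7a and let-7c.

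Ratios between members do not depend on how a library is scaled. The ratio of miR-100 to miR-99a was 0.153 in NT-1, 0.139 in 0.5h-1, 0.169 in 1h-1, 0.109 in 3h-1, 0.0798 in 6h-1 and 0.140 in 24h-1. In the second it was 0.217 in NT-2, 0.252 in 0.5h-2, 0.242 in 1h-2, 0.334 in 3h-2, 0.248 in 6h-2 and 0.233 in 24h-2. All libraries of the second were above all of the first, a 1.97-fold difference (6 of 6 pairs, two-sided exact permutation test with 64 flips of the libraries of a pair, p = 0.03125, which 6 pairs cannot go below).

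The ratio of miR-125a to miR-125b was 0.0261 in NT-1, 0.0441 in 0.5h-1, 0.0157 in 1h-1, 0.00825 in 3h-1, 0.0142 in 6h-1 and 0.0450 in 24h-1. In the second it was 0.0981 in NT-2, 0.119 in 0.5h-2, 0.193 in 1h-2, 0.200 in 3h-2, 0.0268 in 6h-2 and 0.110 in 24h-2. The ratio was 4.91-fold higher in the second, in 6 of 6 pairs (exact permutation test, two-sided, p = 0.03125), and 6h-2 alone overlapped the first time course.

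Within the chromosome 17 cluster, the ratio of miR-99b to miR-125a was 4.12 in NT-1 and between 25.96 and 84.8 in the ECS libraries of the first time course. In the second it was 4.53 in NT-2 and between 2.11 and 9.69 after ECS. It was 0.134-fold in the second relative to the first, lower in 5 of 6 pairs (exact permutation test, two-sided, p = 0.0625), the pair of untreated libraries being the exception. The ratio of miR-99b to miR-99a was 1.62-fold higher in the second, in 4 of 6 pairs (p = 0.125, exact permutation test). This depended on the counting, as the log2 difference was 0.69 with exact tags and 1.06 by the first 18 nt. The latter had p = 0.03125 and an adjusted p of 0.082 (exact permutation test).

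For the shares themselves, on the total miRNA count, the second time course had 0.253-fold the share of miR-99a and 0.625-fold that of miR-125b, each in 6 of 6 pairs (exact permutation test, two-sided, p = 0.03125). With TMM effective library sizes the log2 difference of miR-125b was -0.0512 (p = 0.9375, exact permutation test) and that of miR-99a -1.35 (p = 0.125), and with RLE sizes they were -0.11 (p = 0.719) and -1.41 (p = 0.0625), so the difference of miR-125b was near 0 on those scales. On the total count the fold was 0.409 for miR-99b (p = 0.125), 0.499 for miR-100 (p = 0.0625) and 3.06 for miR-125a (p = 0.0625), each with 5 of 6 pairs in that direction by the same exact permutation test. Benjamini-Hochberg adjustment over the 31 measures compared left the smallest adjusted p at 0.0745, so no share, ratio or isomiR measure passed 0.05. With 13 measures at the smallest possible p this was still out of reach, so 1 measure alone could not have passed. Summed, the miR-99/100 seed family held 1.36% ± 0.499 (SD, n = 6) over the first time course and 0.483% ± 0.280 (SD, n = 6) over the second.

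**Figure D4:**
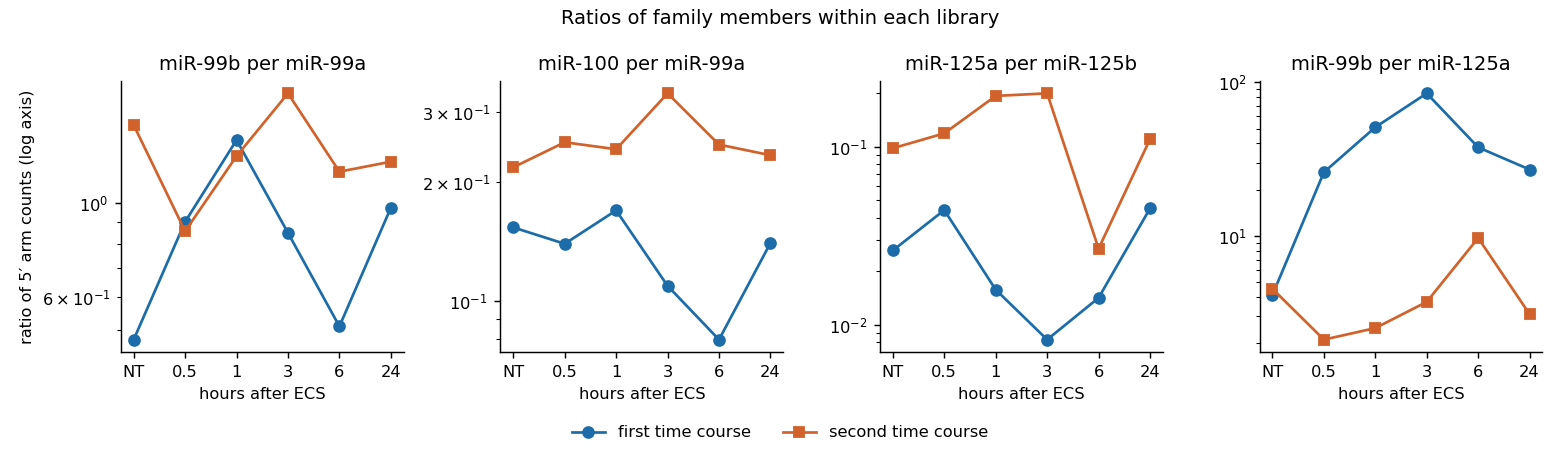
Ratio of 5′ arm counts of members within each library (log axis) against hours after ECS, with the untreated library (NT) at the left, for the first (circles) and the second (squares) time course. The ratio of miR-100 to miR-99a does not overlap between the time courses (0.0798 to 0.169 and 0.217 to 0.334), and the 2 untreated libraries lie close together in the ratio of miR-99b to miR-125a (4.12 and 4.53).

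All 5 members were represented mainly by the 5′ arm, with 101460 counts for miR-99a, 115089 for miR-99b, 18873 for miR-100, 20444 for miR-125a and 201187 for miR-125b. The 3′ arms had 121, 1296, 67, 166 and 6025 counts in the same order, and all 10 arms passed the filter on low counts. The 3′ arm share of miR-125b was 5.91% ± 3.74 (SD, n = 6) over the first time course and 2.04% ± 0.637 (SD, n = 6) over the second, lower in 6 of 6 pairs (exact permutation test, two-sided, p = 0.03125). Its values reached 12.9% in 6h-1. Of the 6025 counts of this arm, 1954 were from Mir125b-1 on chromosome 9 and 4071 from Mir125b-2 on chromosome 16. The chromosome 9 locus gave 53.5% of them in NT-1, 32.9% in NT-2 and between 11.2% and 39.4% in the ECS libraries.

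The 5′ end of the members was precise. At the mature start lay 99.6% of the counts of miR-99a, 98.4% of miR-99b, 99.0% of miR-100, 99.5% of miR-125a and 95.8% of miR-125b. For miR-125b a start 1 base downstream, which shifts the seed, made up 3.63% of the counts. For miR-99b such a start made up 1.58% of all counts and 9.15% of those in NT-1, where the mature start held 90.6%.

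The 3′ end varied far more. The leading tag of miR-99a differed between libraries, and its forms in NT-1, in 0.5h-1 and in NT-2 are shown because they carry the length result:
miR-99a, 19 nt: aacccgtagatccgatctt
miR-99a, 21 nt: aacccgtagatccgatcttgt
miR-99a, 20 nt: aacccgtagatccgatcttg
The 19 nt form made up 52.0% of the 5′ arm counts of miR-99a in NT-1, the 21 nt form 61.8% in 0.5h-1 and the 20 nt form 53.7% in NT-2. The 20 nt form led in all 6 libraries of the second time course, and the 21 nt form in 4 of 6 of the first.

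Tags of 18 or 19 nt made up 59.4% of the counts of miR-99a in NT-1, and between 0.832% and 8.08% in the other 11 libraries. For miR-100 they made up 56.3% in NT-1 and between 0.632% and 7.32% elsewhere. For miR-99b the share was 22.8% in NT-1 and between 0.206% and 1.75% elsewhere. In the miR-125 family NT-1 stood out less, with 11.1% for miR-125b against 0.628% to 5.52% elsewhere, and 4.90% for miR-125a, which lies within the range of the other libraries (0% to 7.27%). Tags below 18 nt were not in the files, so further shortening could not be counted. The untreated levels depended on the lengths counted. With tags of 20 to 24 nt only, NT-1 held 2.27% for miR-125b in place of 1.24%, 0.0636% for miR-125a in place of 0.0325% and 0.213% for miR-99b in place of 0.134%. Under this counting miR-99a was 0.236% of the counts in NT-1 and between 0.719% and 0.972% in the ECS libraries of the first time course, so NT-1 was the lowest for this member as well. Moving the untreated label gave p = 0.0556 for the mean length of miR-99a, of miR-99b and of miR-100 (exact permutation test, two-sided), with an adjusted p of 0.431 each. The difference was in the first time course, where untreated minus the ECS mean was -1.02 nt for miR-99a, against -0.0250 nt in the second.

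The 22 nt form set libraries of the first time course apart, over the widest range in the miR-125 family. It made up 43.1% of miR-125b in 0.5h-1 and 40.2% in 24h-1 but between 0.242% and 2.51% in the other 4 libraries of the first time course, in which the 20 nt form held between 76.7% and 84.8%. In the second time course the 22 nt form held between 47.0% and 57.3%. The other family had the same order of libraries in the first time course, at lower levels. The 22 nt form of miR-99a held 11.8% in 0.5h-1 and 10.8% in 24h-1, but 4.48% in NT-1, 2.06% in 1h-1, 0.712% in 3h-1 and 0.264% in 6h-1. That of miR-99b held 18.2% in 0.5h-1 and 16.3% in 24h-1, and that of miR-100 15.6% and 14.8%, each above the rest of that time course. The mean length of miR-125b was 20.4 ± 0.493 nt (SD, n = 6) over the first time course and 21.2 ± 0.0990 nt (SD, n = 6) over the second, with no overlap, and that of miR-125a was 20.8 ± 0.591 and 21.7 ± 0.231 nt (SD, n = 6). Both were longer in 6 of 6 pairs (exact permutation test, two-sided, p = 0.03125). The mean length of miR-99a differed by 0.0884 nt between the time courses (3 of 6 pairs, exact permutation test, p = 0.844).

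**Figure D5:**
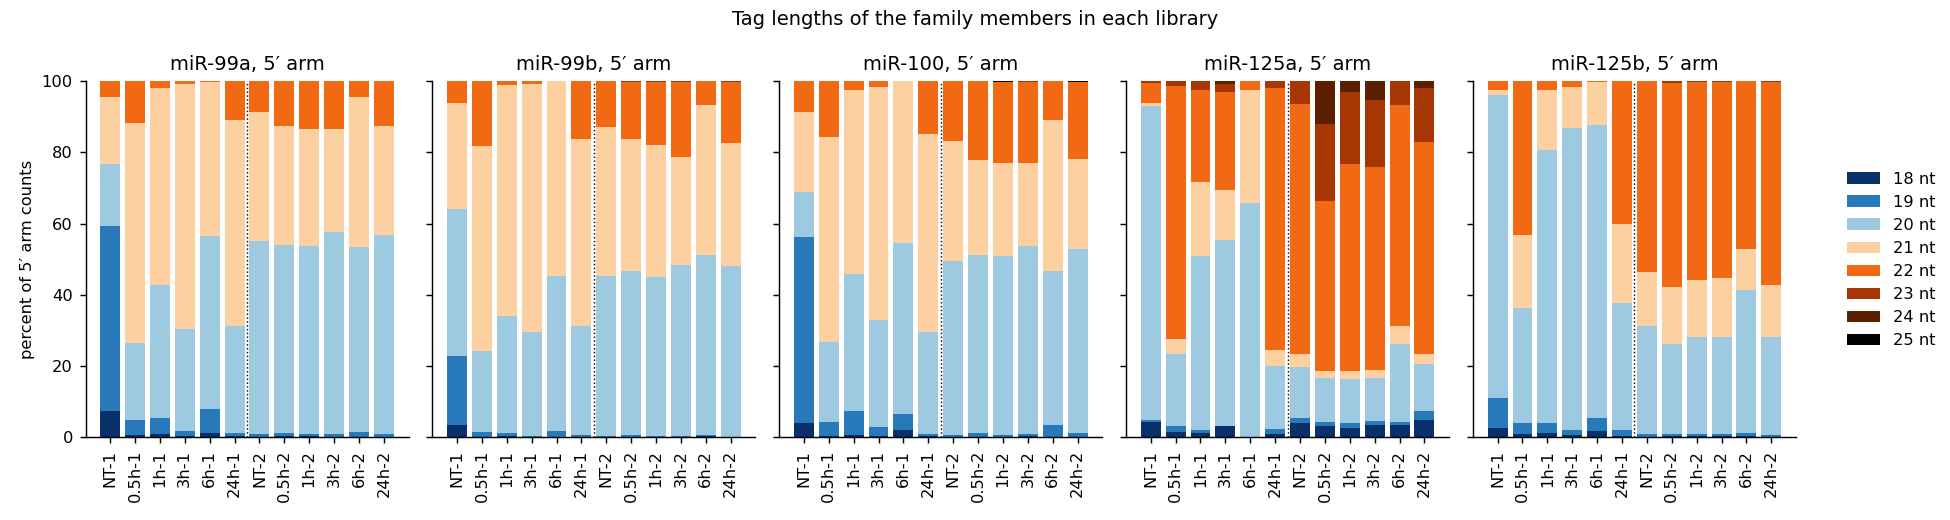
Length of the tags of each member's 5′ arm as a percent of its counts, in stacked bars for the 12 libraries, with a dotted line between the first and the second time course. Tags of 18 and 19 nt (dark blue) fill 59.4% of miR-99a and 56.3% of miR-100 in NT-1, and the 22 nt form of miR-125b is nearly missing from 4 libraries of the first time course.

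Tags with a last base that the hairpin does not encode were counted apart, and this base is called added here. A misread last base gives the same tag as an added base. Base errors and true additions could therefore not be told apart in the values below. With the libraries pooled, an added A was most frequent on the 3′ arm of miR-125b (28.1% of its tags, against 13.6% on the 3′ arm of miR-99a, which had few counts). On miR-125b it was in 16.8% ± 10.2 (SD, n = 6) of its tags over the first time course and 37.0% ± 1.64 (SD, n = 6) over the second, and these did not overlap. On the 5′ arm of miR-99a an added T was the most frequent with the libraries pooled, in 1.83% ± 1.55 (SD, n = 6) and 5.76% ± 0.930 (SD, n = 6) of the tags. NT-1 was the highest of the first time course for this T at 4.88%. An added C on the same arm made up 1.78% ± 1.17 (SD, n = 6) and 0.223% ± 0.0405 (SD, n = 6). In the first time course the mean of C was thus near that of T, although C was 0.187% in NT-1. NT-1 raised the mean of T and lowered that of C, so over the ECS libraries of this time course C was above T on average. On miR-99b an added A made up 4.24% ± 2.04 (SD, n = 6) and 12.2% ± 7.07 (SD, n = 6). These were not tested.

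As miR-99a and miR-100 differ at 1 base, a misread base could move a count from one to the other. Over their first 20 bases, tags with the base of miR-100 (T16A in the letters of the tags) amounted to 20.1% of those of miR-99a, while the other changes at this base amounted to 1.86% (T16C) and 0.518% (T16G). The largest change at any other position was G20T, at 4.28%. Summed over the libraries, T16A was thus above every other single-base change of miR-99a measured here. Between libraries T16A ranged from 8.45% to 37.5%, G20T from 1.12% to 13.1% and T19C from 0.0791% to 9.20%. The range of T16A overlaps the other 2, so the order of the sums need not hold in each library.

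By the lower of the 2 correlations over the 6 libraries of each time course, among 212 arms that reached 10 counts in each library, the arm most like miR-99a was miR-99b (r = 0.886 in the first, 0.953 in the second). The arm most like miR-100 was miR-99b as well (0.957 and 0.954). Next to miR-99a came the 3′ arms of miR-101c and miR-30c, next to miR-99b came miR-100, miR-99a and miR-486, and next to miR-100 came let-7g and miR-486. For miR-125a they were the 5′ arms of miR-129 (0.906 and 0.965), miR-1843a and miR-744. For miR-125b they were the 3′ arms of miR-30a (0.887 and 0.884), miR-668 and miR-30e. Between the families the time courses differed, since miR-99a and miR-125b had r = -0.564 in the first and 0.9502 in the second. These are descriptions over 6 libraries that share depth and cloning, and NT-1 is 1 of the 6. The relatives miR-10a and miR-10b had 59 and 33 counts over all libraries, too few for a pattern.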

How the data were processed

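Small RNA of 12 mouse hippocampi, size-selected and sequenced as described by the authors, was deposited as tag counts: each distinct insert of at least 18 nt with its number of reads, after adapter removal, not normalized and before alignment. From these deposited counts, tags were assigned to miRNA arms where the whole tag (18 to 34 nt) matched a hairpin of GENCODE M21 (GRCm38) exactly, and tags of several miRNAs were split equally. Arms that reached 10 counts in 2 or more libraries were tested with edgeR 4.0.16 (TMM, quasi-likelihood, Benjamini-Hochberg over all arms), with DESeq2 1.42.0 as an alternative. Shares, ratios and isomiR measures were compared by exact permutation. Python 3.11.15 and R 4.3.3 were used, and the functions were tested on simulated data. The simulated counts for the fit after ECS held no difference between time courses. They check the code and not the error rates in these data. Library totals of 439336 to 4282006 miRNA counts limit precision, and without molecular identifiers, intervals and the floor of 3 counts cover counting error only. Libraries of 1 time course deviated together from the time-point means (mean r = 0.567 over 15 pairs of time points, lowest 0.362), and the study states that the number marks the time course, so the numbers pair the libraries. The members, the let-7 partners, the miR-10 relatives, the cell type markers and the rule for the 3 most similar arms were chosen with earlier results of these data known. Effective-size scaling of shares was added after seeing the data. The aligner of the study was not used, and other RNA classes were not analysed here.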

Additional observations from a re-analysis of the deposited data

Results flagged for a closer look

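In each time course, a library was set apart where its gap to the nearest of the other 5 was more than 0.625 of the whole range (Dixon's critical value for 6 samples). For ratios and for member and family shares of the miRNA counts the gap was taken on the log2 scale, while the values printed below are linear. The rule set a library apart in 18 of the 62 groups of values, where 1 in 20 of independent groups would be 3.1. The groups are overlapping measures of the same 12 libraries, and some rest on few counts. The 18 cases are therefore not independent and were not tested against chance. Most of them lay in NT-1 or 6h-2. NT-1 was low in miR-99a (0.282% of the miRNA counts, against 0.658% to 0.852%) and in the summed miR-99/100 family (0.460%, against 1.10% to 1.71%). It was high in tags of 18 or 19 nt of miR-99a (59.4%, against 1.33% to 8.08%), miR-99b (22.8%, against 0.452% to 1.75%) and miR-100 (56.3%, against 0.969% to 7.32%). It was low in counts at the mature start of miR-99a (99.5%) and of miR-99b (90.6%, against 96.4% to 99.1%), and high in the 3′ arm share of miR-99a (0.199%, from 6 counts). The library 6h-2, the least deeply sequenced of the second time course, was low in the ratio of miR-125a to miR-125b (0.0268, against 0.0981 to 0.200). It was high in the 3′ arm share of miR-125a (8.53%, against 0.227% to 0.876%), an arm with only 166 counts over all libraries. The library was also high in the 3′ arm share of miR-100 (3.23%, from 8 counts) and in the 18 or 19 nt tags of miR-100 (3.33%). It was low in counts at the mature start of miR-125b (93.9%, against 96.6% to 97.1%) and in mean length of miR-125b (21.04 nt) and miR-99b (20.5 nt). The ratio of miR-100 to miR-99a was high in 3h-2 (0.334, against 0.217 to 0.252), the 3′ arm share of miR-99a in 0.5h-2 (1.15%, from 54 counts) and that of miR-100 in 6h-1 (1.22%, from 3 counts). For 3 measures every ECS library lay on one side of its untreated library in the first time course and on the other side in the second. The mean of ECS minus untreated was -0.196 percentage points in the first and 0.325 in the second for the 3′ arm share of miR-99a, -1.20 and 1.10 for that of miR-99b, and -51.9 and 0.792 for the 18 or 19 nt share of miR-100. The difference between the time courses was not tested.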

How the results depend on the processing

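The counts of arms called between the time courses ranged from 92 (without 1h-1) to 157 when 1 library was left out, against 151 with all, and a lone library of a time point was then assumed to vary like the others. After ECS, DESeq2 called 1 arm at 0.5 h and 2 at 3 h, none of them a member, and edgeR called 1 arm at 3 h with no filter on low counts. With the replicate block the edgeR fits called 0 arms at each time, and the block turned the log2 fold change of miR-99a at 6 h to -0.0591 and that of miR-125a at 24 h to 0.10; no member arm was called there with or without it. The log2 fold change of miR-125b turned at 1 h under total count scaling (0.0559) and by the first 18 nt (0.0496), and at 3 h under total count scaling (-0.36) and with tags of 1 miRNA (-0.00432). Between the time courses, that of the 3′ arm of miR-125a turned under total count scaling (-0.45), with tags of 1 miRNA (-0.0271) and with the time point, which pairs the libraries in this fit, left out (-0.0458). The log2 difference of the summed miR-125 share between the time courses turned with TMM (0.0798) and RLE (0.0257) scaling, which were added after seeing the data. With tags of 20 to 24 nt, the mean length difference of miR-99a between the time courses became -0.137 nt. Under the same counting, untreated minus ECS became 0.0839 nt for the mean length of miR-100 and 0.14 for the log2 ratio of miR-99b to miR-99a. By the first 18 nt, untreated minus ECS of the log2 ratio of miR-100 to miR-99a became -0.00334. The difference of this log2 ratio between the time courses did not turn by the first 18 nt (1.02). When 1 library was left out, the log2 fold change after ECS at 0.5 h ran from -0.79 to 1.78 for miR-99a, -1.09 to 2.11 for miR-99b, -0.37 to 1.34 for miR-100 and -1.07 to 0.80 for miR-125a. At 1 h it ran from -1.98 to 2.14 for miR-125a and -0.15 to 0.15 for miR-125b. At 3 h it ran from -2.58 to 1.95 for miR-125a and -0.39 to 0.30 for miR-125b. At 6 h it ran from -0.93 to 1.12 for miR-99a, -0.89 to 1.11 for miR-99b and -0.60 to 0.23 for miR-100. At 24 h it ran from -0.33 to 1.48 for miR-99a, -0.0978 to 2.41 for miR-99b, -0.0255 to 1.34 for miR-100 and -1.14 to 1.16 for miR-125a. Untreated minus ECS of the log2 share ran from -1.41 to 0.54 for miR-99a, -2.30 to 0.84 for miR-99b, -1.10 to 0.29 for miR-100 and -1.73 to 0.67 for miR-99/100 family, as untreated lay below the ECS mean in the first and above it in the second time course. For the log2 ratios it ran from -0.89 to 0.30 for miR-99b to miR-99a, -0.25 to 0.31 for miR-100 to miR-99a, -0.13 to 0.35 for miR-125a to miR-125b and -3.31 to 0.34 for miR-99b to miR-125a. The mean length difference of miR-99a between the time courses ran from -0.0771 to 0.15 nt when a time point was left out. The log2 fold change between the time courses ran from -0.46 to 0.48 for miR-125a 3′ arm and -0.26 to 0.0362 for miR-125b 5′ arm. Apart from these and the member calls given above, 456 values from fits without a library and 397 from other settings kept their direction and side of the threshold. Exact permutation tests without a time point, or of untreated against ECS without an untreated library, could not reach a p under 0.05. For those values only the direction could change. At an unadjusted 0.05 the block left 26, 12, 24, 32 and 24 arms, ordered by time, the 3′ arm of miR-99b at 1 h being the 1 member among them. Measures of 18 or 19 nt tags have no value with tags of 20 to 24 nt, and 3′ end measures none by the first 18 nt. The cause of these shifts was not tested. Depth limits the 3′ arms and miR-125a in 6h-1 most, and 2 libraries in a group limit every comparison after ECS.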
